A study of Homo sapiens with 9 samples.

Results

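The 7 mRNAs for the subunits of respiratory complex I that are encoded by mitochondrial DNA (MT-ND1, MT-ND2, MT-ND3, MT-ND4L, MT-ND4, MT-ND5 and MT-ND6) were followed in MDA-MB-231, a cell line derived from a triple-negative breast cancer. They were taken by gene name from chromosome MT of the gene lists of all 9 libraries, and are 7 of the 27615 genes of the longest list and 7 of the 13 mitochondrially encoded mRNAs. The cells had received vehicle (DMSO), rimonabant, an antagonist of the cannabinoid receptor CB1, or TXX-1-10, a compound derived from rimonabant, with 3 libraries per treatment. All groups are the same cell line with no genetic change named, and how much compound the sequenced cells received, and for how long, is not given in the sources used here. RNA was selected with oligo(dT), which binds poly(A) tails. The labels do not say whether the 3 libraries of a treatment came from separate cultures, so p-values measure the spread between these libraries, which may be technical.

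Complex I, NADH:ubiquinone oxidoreductase, is the entry point of electrons from NADH into the respiratory chain, and its mitochondrially encoded subunits form the core of the membrane arm that pumps protons. The other subunits are encoded in the nucleus and imported. Human mitochondrial DNA is transcribed on both strands into long precursors that are cut mostly at the tRNAs between the genes, so mRNAs cut from 1 precursor can reach different levels through processing and decay.

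The library totals implied by count, FPKM (fragments per kilobase of gene, scaled to a fixed number of reads) and gene length were 17078370 to 19277808. They are scaling sizes and not numbers of reads. The listed counts summed to more than the total in vehicle replicates 1 (17492638 against 17078370) and 3 (17383157 against 17221591), and to less in the others. In all 9 libraries, 4236 genes were listed with a mean FPKM of at least 1. All 7 members passed that filter, with 6900 to 135279 reads each per library. Of the markers listed for the cell line, VIM, CD44, AXL, CAV1 and KRT18 were detected in all 9 libraries (VIM at 224 to 329 FPKM), whereas SPARC was at most 0.558 FPKM in the 6 libraries that list it. ESR1 was at most 0.0314 FPKM in 4 libraries, and CDH1 was listed at 0 in 4 libraries. Of the other markers named as low, PGR was at most 0.0459 FPKM in 4 libraries and GATA3 at most 1.45 in 6, whereas EPCAM was at 4.47 to 5.37 in 7 libraries and KRT5 was not analysed here. Rimonabant replicate 1 and TXX-1-10 replicate 3 stood apart from the other replicates of their treatments, since they favoured short genes. Across genes, log2(FPKM + 1) relative to the mean of those replicates had a Spearman rho with gene length of -0.697 and -0.696. Results that rest on them are given with and without them.

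On the GRCh38 build, 6 members lie on the plus strand of the reference, and their RNA comes from the heavy-strand promoter. In order from that promoter they are MT-ND1 (chrMT:3307-4262), MT-ND2 (chrMT:4470-5511), MT-ND3 (chrMT:10059-10404), MT-ND4L (chrMT:10470-10766), MT-ND4 (chrMT:10760-12137) and MT-ND5 (chrMT:12337-14148). MT-ND6 (chrMT:14149-14673) lies on the minus strand next to MT-ND5 and its RNA comes from the light-strand promoter. Each is annotated as 1 exon. MT-ND1 and MT-ND2 lie ahead of the cytochrome c oxidase and ATP synthase genes, and the other heavy-strand members lie behind them.

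The last 30 bases of each annotated gene are shown because the libraries were made from polyadenylated RNA. The annotated end of MT-ND4L lies inside MT-ND4, and where the tails sit was not examined here. The bases were read from the GENCODE release 29 transcripts. Capitals mark either the bases left over after the last whole codon, where the tail completes the stop codon, or the complete last codon.
MT-ND1: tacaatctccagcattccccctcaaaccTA
MT-ND2: ctatctccccttttatactaataatcttaT
MT-ND3: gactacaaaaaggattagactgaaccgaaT
MT-ND4L: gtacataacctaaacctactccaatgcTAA
MT-ND4: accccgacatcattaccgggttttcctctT
MT-ND5: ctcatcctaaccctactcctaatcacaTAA
MT-ND6: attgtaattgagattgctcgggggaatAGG
MT-ND1, MT-ND2, MT-ND3 and MT-ND4 end short of a whole codon, and MT-ND4L, MT-ND5 and MT-ND6 end on a complete one. The MT-ND6 mRNA differs from the others in base composition, with 35.6% G and 7.05% C against 9.50% to 12.1% G in the other 6. MT-ND6 mRNA is known to carry little or no poly(A) tail, so the level of this gene in oligo(dT)-selected RNA may not stand for all of its RNA.

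MT-ND4L and MT-ND4 are read from 1 bicistronic mRNA in overlapping frames, and the junction is shown because reads over it belong to both genes. The 53 bases at chrMT:10737-10789 are given on the plus strand with the 7 shared bases in capitals.
Junction: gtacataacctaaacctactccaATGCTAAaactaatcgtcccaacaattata

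TXX-1-10 lowered 6 of the 7 mRNAs, and MT-ND2 was the exception. Relative to vehicle, the levels of MT-ND3, MT-ND4L, MT-ND4, MT-ND5 and MT-ND6 fell at least 2-fold and MT-ND1 fell less. With all 4236 genes tested in 1 edgeR quasi-likelihood fit, 6 of 7 members fell at an adjusted p under 0.05, where 43.8% of all genes tested did (37.1% with TMM scaling, under which the same number of members fell), and 5 of 7 also fell at least 2-fold, where 7.6% of all genes did. The FPKM ranges of the groups did not overlap for these 6 members, which was so in the lower direction for 46.3% of all genes. The members' median log2 fold change was -1.36 and that of all genes was -0.09. The members' share of the library total was 2.18% to 2.31% in vehicle-treated cells, 2.08% to 2.29% under rimonabant and 1.06% to 1.18% under TXX-1-10. In bulk RNA, fewer cells holding a transcript and less of it per cell cannot be told apart.

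**Figure D1:**
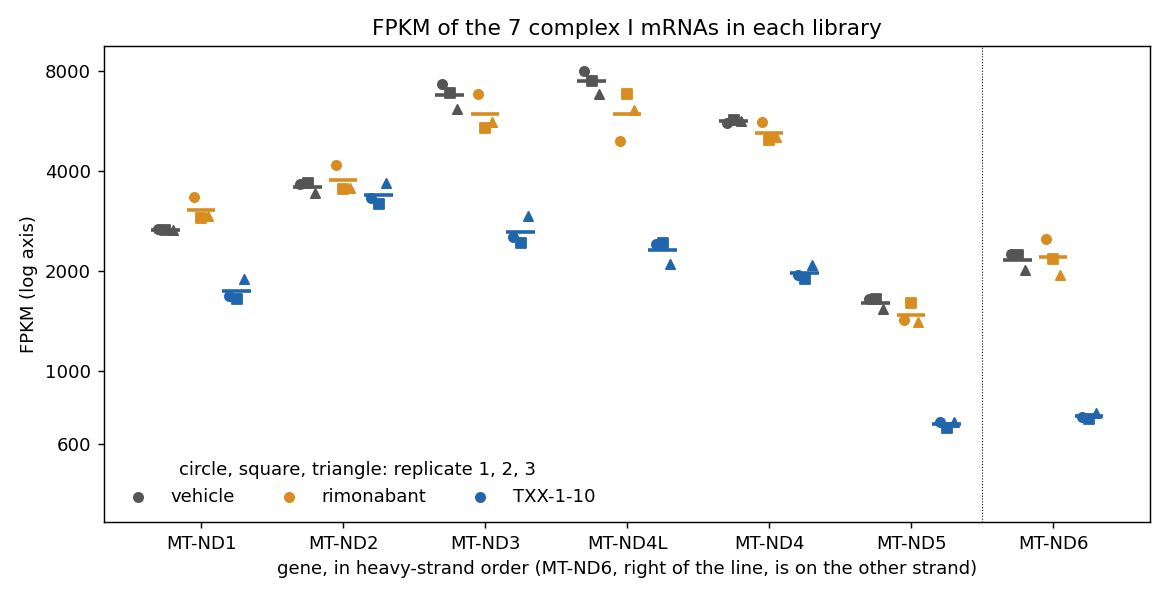
FPKM of the 7 genes in each of the 9 libraries on a log axis, with a bar at the mean of 3 libraries and the shape of a point giving the replicate. The TXX-1-10 libraries lie below all vehicle libraries for every gene except MT-ND2, whose TXX-1-10 libraries (3171 to 3669) overlap the vehicle libraries (3420 to 3681). With counts set against the 13 mitochondrial mRNAs alone, the TXX-1-10 difference of MT-ND1, MT-ND2, MT-ND3 and MT-ND5 turns to higher.

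MT-ND1, which sits where the membrane arm meets the arm that carries electrons and helps to form the ubiquinone site, had FPKM of 2667, 2653 and 2656 in vehicle replicates 1 to 3, 3330, 2880 and 2915 with rimonabant, and 1681, 1649 and 1891 with TXX-1-10. All rimonabant libraries were above and all TXX-1-10 libraries below the vehicle libraries, which lay within a narrow range. The log2 fold change under TXX-1-10 was -0.61 (SE 0.08, edgeR adjusted p = 3.66e-05). The difference under rimonabant missed the threshold, at 0.19 (95% interval 0.03 to 0.36, edgeR adjusted p = 0.0564), and passed without rimonabant replicate 2 (edgeR adjusted p = 0.0471) or TXX-1-10 replicate 3 (edgeR adjusted p = 0.0230). It was higher and passed under 11 of 25 alternatives in all.

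MT-ND2, a proton-pumping subunit related to bacterial antiporters, had FPKM of 3638, 3681 and 3420 with vehicle, 4163, 3514 and 3558 with rimonabant, and 3305, 3171 and 3669 with TXX-1-10. The ranges of all groups overlapped, with rimonabant replicate 1 the highest library and TXX-1-10 replicate 2 the lowest. Its difference under TXX-1-10 was -0.08 on the log2 scale (95% interval -0.27 to 0.11, edgeR adjusted p = 0.401). That interval lies above those of the other members, whose highest upper bound was -0.44 (MT-ND1). Without rimonabant replicate 1 and TXX-1-10 replicate 3, MT-ND2 fell by 0.14 on the log2 scale (edgeR adjusted p = 0.00059). The sign itself depends on the scaling, as the difference was 0.02 with TMM scaling and with DESeq2 size factors, and 0.04 with a correction for gene length. Under rimonabant it was 0.07 (95% interval -0.12 to 0.25, edgeR adjusted p = 0.551), and -0.02 without rimonabant replicate 1.

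MT-ND3, a small subunit with a loop at the ubiquinone site, had FPKM of 7275, 6839 and 6125 with vehicle, 6818, 5366 and 5588 with rimonabant, and 2534, 2418 and 2924 with TXX-1-10. Every TXX-1-10 library was below every other library, while the rimonabant and vehicle ranges overlapped. The log2 fold change under TXX-1-10 was -1.36 (SE 0.11, edgeR adjusted p = 1.47e-06). Under rimonabant it was -0.19 (95% interval -0.43 to 0.05, edgeR adjusted p = 0.180), which passed without rimonabant replicate 1 (-0.30, edgeR adjusted p = 0.0244).

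MT-ND4L, the shortest member and a small membrane subunit, had FPKM of 8006, 7472 and 6806 with vehicle, 4900, 6803 and 6094 with rimonabant, and 2399, 2420 and 2102 with TXX-1-10. The vehicle libraries were above all others, if by little over rimonabant replicate 2, and rimonabant replicate 1 and TXX-1-10 replicate 3, the libraries that favoured short genes, were the lowest of their groups. Its fall under TXX-1-10 had the largest size among the members, at -1.69 (SE 0.12, edgeR adjusted p = 5.13e-07). It was the only member to pass under rimonabant, at -0.32 (SE 0.12, edgeR adjusted p = 0.0406), and it no longer passed without rimonabant replicate 1 (-0.20, edgeR adjusted p = 0.0847). The call was also lost without vehicle replicate 1 or 2, rimonabant replicate 3 or TXX-1-10 replicate 1, with an edgeR adjusted p of up to 0.140.

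MT-ND4, a proton-pumping subunit with the most reads among the members, had FPKM of 5562, 5693 and 5645 with vehicle, 5595, 4948 and 5066 with rimonabant, and 1939, 1895 and 2085 with TXX-1-10. The TXX-1-10 libraries were far below the others, and rimonabant replicate 1 lay within the vehicle range while the other rimonabant libraries lay under it. The log2 fold change was -1.51 under TXX-1-10 (SE 0.07, edgeR adjusted p = 2.66e-08). It was -0.11 under rimonabant (95% interval -0.27 to 0.04, edgeR adjusted p = 0.199).

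MT-ND5, the proton-pumping subunit at the far end of the membrane arm, had FPKM of 1642, 1640 and 1529 with vehicle, 1417, 1603 and 1405 with rimonabant, and 699, 674 and 701 with TXX-1-10. It was the lowest member in all treatments, its TXX-1-10 libraries were closely grouped, and the rimonabant and vehicle ranges overlapped. The log2 fold change was -1.21 under TXX-1-10 (SE 0.07, edgeR adjusted p = 8.99e-08). It was -0.12 under rimonabant (95% interval -0.27 to 0.03, edgeR adjusted p = 0.159), which passed without rimonabant replicate 2 (-0.18, edgeR adjusted p = 0.0409).

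MT-ND6, a membrane subunit and the only mRNA from the light-strand promoter, had FPKM of 2253, 2225 and 2004 with vehicle, 2497, 2172 and 1946 with rimonabant, and 728, 714 and 748 with TXX-1-10. The rimonabant range enclosed the vehicle range, and the TXX-1-10 libraries lay together well below both. The log2 fold change was -1.57 under TXX-1-10 (SE 0.09, edgeR adjusted p = 1.08e-07), among the sizes of the members on the other strand. Under rimonabant it was 0.03 (95% interval -0.16 to 0.22, edgeR adjusted p = 0.810), and -0.07 without rimonabant replicate 1. The library kit is not named as one that keeps the strand, and strand use in counting is not given in the sources used here. Reads from either strand over MT-ND6 therefore cannot be told apart.

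Under rimonabant 1 of 7 members passed, where 48.9% of all genes tested did, 25.2% falling and 23.7% rising. The FPKM ranges of the rimonabant and vehicle groups did not overlap for 2 of 7 members, MT-ND1 above and MT-ND4L below, where 61.1% of all genes did not overlap. The count of passing members was 0 without vehicle replicate 1 or 2, rimonabant replicate 3 or TXX-1-10 replicate 1, 2 without TXX-1-10 replicate 3, and 3 without rimonabant replicate 2. Without both libraries that favoured short genes it was 4 of 7, with MT-ND1 higher (0.12) and MT-ND3 (-0.30), MT-ND4L (-0.20) and MT-ND4 (-0.17) lower on the log2 scale, and 68.6% of all genes passed in that fit. No member passed with a change of at least 2-fold, a rule that 1.13% of all genes met.

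The compounds were also compared with each other, with no statement that their doses matched. The comparisons with vehicle share the same vehicle libraries. Levels under TXX-1-10 were below those under rimonabant for 6 of 7 members at an adjusted p under 0.05, where 39.4% of all genes tested fell, and the ranges of these 6 did not overlap, where 38.8% of all genes were lower without overlap. The log2 differences were -0.81 for MT-ND1, -1.17 for MT-ND3, -1.36 for MT-ND4L, -1.40 for MT-ND4, -1.09 for MT-ND5 and -1.59 for MT-ND6, with edgeR adjusted p between 9.83e-08 and 8.28e-06. MT-ND2 differed by -0.15 (95% interval -0.34 to 0.04, edgeR adjusted p = 0.152), and by -0.21 without TXX-1-10 replicate 3 (edgeR adjusted p = 0.0415). The split of calls over all genes depended on scaling in this comparison, with 1065 higher and 1667 lower genes with the library totals and 1381 higher and 1349 lower genes with TMM.

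Position separated the members under TXX-1-10. MT-ND1 and MT-ND2 (log2 fold changes -0.61 and -0.08), which lie 2730 and 3893 bases from the start of the first heavy-strand gene, changed least, and the 4 heavy-strand members that start 9482 bases or more from it lay between -1.69 and -1.21. The change did not follow distance in steps, since MT-ND2 is farther than MT-ND1 and MT-ND5 is the farthest of the heavy-strand members. Over the 6 heavy-strand members the Spearman rho of the log2 fold change with the start was -0.54 under TXX-1-10 and under rimonabant, and over the 12 heavy-strand mRNAs it was -0.15 and -0.31. These points share libraries and a precursor RNA and serve as a description. Gene length gave a rho under TXX-1-10 of 0.37 over the 6 heavy-strand members, 0.54 over the 7 members and -0.17 over the 12 mRNAs, and its part in the pattern by position was not tested.

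Among the genes around the members, the mRNAs of cytochrome c oxidase fell most, with log2 fold changes under TXX-1-10 of -2.07 for MT-CO1, -2.03 for MT-CO2 and -1.87 for MT-CO3 (edgeR adjusted p between 5.76e-09 and 1.52e-07). MT-CYB, the complex III subunit behind MT-ND6, fell by 1.64 and MT-ATP6, an ATP synthase subunit, by 1.45 on the log2 scale. MT-ATP8, which overlaps MT-ATP6, rose under TXX-1-10 (0.24, edgeR adjusted p = 0.00125). The rise passed with each library left out and under 22 of 24 alternatives. MT-ATP8 fell under rimonabant (-0.15, edgeR adjusted p = 0.0242), a fall that did not pass without vehicle replicate 1 or 2 or rimonabant replicate 1. In vehicle replicate 1 it had 1946 reads, where MT-ATP6 had 88365. How reads over the overlap were counted is not given in the sources used here. The part of that counting in the MT-ATP8 values was not tested, so they may not stand for the level of its mRNA. In all, 5 of the 6 other mitochondrial mRNAs fell and 1 rose under TXX-1-10, where 43.8% of all genes fell and 30.5% rose.

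The ribosomal RNAs, ahead of MT-ND1, were higher. MT-RNR1 rose by 1.42 under TXX-1-10 (edgeR adjusted p = 5.90e-07) and by 0.67 under rimonabant (edgeR adjusted p = 0.000457) on the log2 scale, and MT-RNR2 rose by 0.54 (edgeR adjusted p = 0.000266) and 0.48 (edgeR adjusted p = 0.00140). In mRNA libraries, rRNA reads are those that pass oligo(dT) selection, and their part in the members' values was not tested.

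Because the mitochondrial mRNAs fell by different amounts, the make-up of the pool changed. The members held 39.4% to 40.6% of the counts on the 13 mitochondrial mRNAs with vehicle, 40.2% to 42.1% with rimonabant and 53.7% to 55.0% with TXX-1-10. The summed counts of the mRNAs outside complex I thus lost more, though not each of these mRNAs did. MT-CO1, MT-CO2 and MT-CO3 fell more than any member. MT-CYB (-1.64) and MT-ATP6 (-1.45) fell within the range of the members (-1.69 to -0.08), and MT-ATP8 rose. When the counts were scaled to these 13 mRNAs in place of the library total, the log2 differences under TXX-1-10 were 0.85 for MT-ND1, 1.38 for MT-ND2, 0.10 for MT-ND3 and 0.25 for MT-ND5. MT-ND4, MT-ND4L and MT-ND6 stayed below vehicle under that scaling but no longer passed. The same scaling moved the median of all genes from -0.09 to 1.37.

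Among the members themselves MT-ND2 gained the most. Its share of their summed FPKM was 12.0% ± 0.26 (SD, n = 3) with vehicle, 13.6% ± 0.83 with rimonabant and 25.1% ± 0.77 with TXX-1-10. The share of MT-ND1 was 8.93% ± 0.44, 11.0% ± 0.52 and 12.9% ± 0.40. The share of MT-ND4L was 24.9% ± 0.83, 21.6% ± 4.1 and 17.2% ± 2.0, and that of MT-ND5 stayed within 4.93% to 5.87% in all 9 libraries. These shares are ratios within a library and do not depend on the library total.

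**Figure D2:**
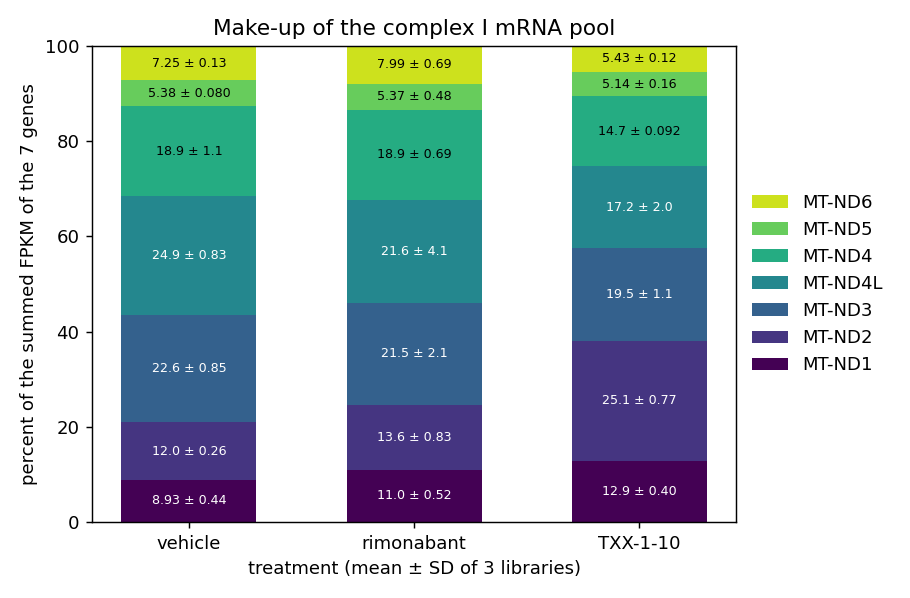
Percent of the summed FPKM of the 7 genes that each gene holds, stacked for each treatment and starting at 0, with the mean ± SD of 3 libraries written in each block. MT-ND2 goes from 12.0% with vehicle to 25.1% with TXX-1-10, and MT-ND4L from 24.9% to 17.2%.

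The order of the levels changed accordingly. With vehicle and with rimonabant it ran MT-ND4L, MT-ND3, MT-ND4, MT-ND2, MT-ND1, MT-ND6 and MT-ND5 from high to low, and with TXX-1-10 it ran MT-ND2, MT-ND3, MT-ND4L, MT-ND4, MT-ND1, MT-ND6 and MT-ND5. Neighbours whose ranges overlapped were MT-ND4L and MT-ND3 in all treatments, and MT-ND3 and MT-ND4 with rimonabant. All other neighbours did not overlap.

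The mean FPKM of MT-ND1 and MT-ND2 over the mean of MT-ND3, MT-ND4L, MT-ND4 and MT-ND5 was 0.561, 0.585 and 0.604 in vehicle replicates 1 to 3. It was 0.800, 0.683 and 0.713 with rimonabant, and with TXX-1-10 it reached 1.32, 1.30 and 1.42. Every rimonabant library was above every vehicle library, and every TXX-1-10 library above both groups. This split of the genes was chosen after their values were seen, so the ratio is a description without a test.

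MT-ND2 over MT-ND1 parts the pair nearest the promoter, and was 1.35 ± 0.052 with vehicle, 1.23 ± 0.017 with rimonabant and 1.94 ± 0.021 with TXX-1-10 (SD, n = 3). MT-ND2 over MT-ND4, a pair of proton-pumping subunits, was 0.636 ± 0.026, 0.719 ± 0.022 and 1.71 ± 0.043. MT-ND4L over MT-ND4, the genes of the shared mRNA, was 1.21 to 1.44 with vehicle, 0.876 to 1.37 with rimonabant and 1.01 to 1.28 with TXX-1-10. These ranges overlapped, and the lowest values of the treated groups were those of rimonabant replicate 1 and TXX-1-10 replicate 3.

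**Figure D3:**
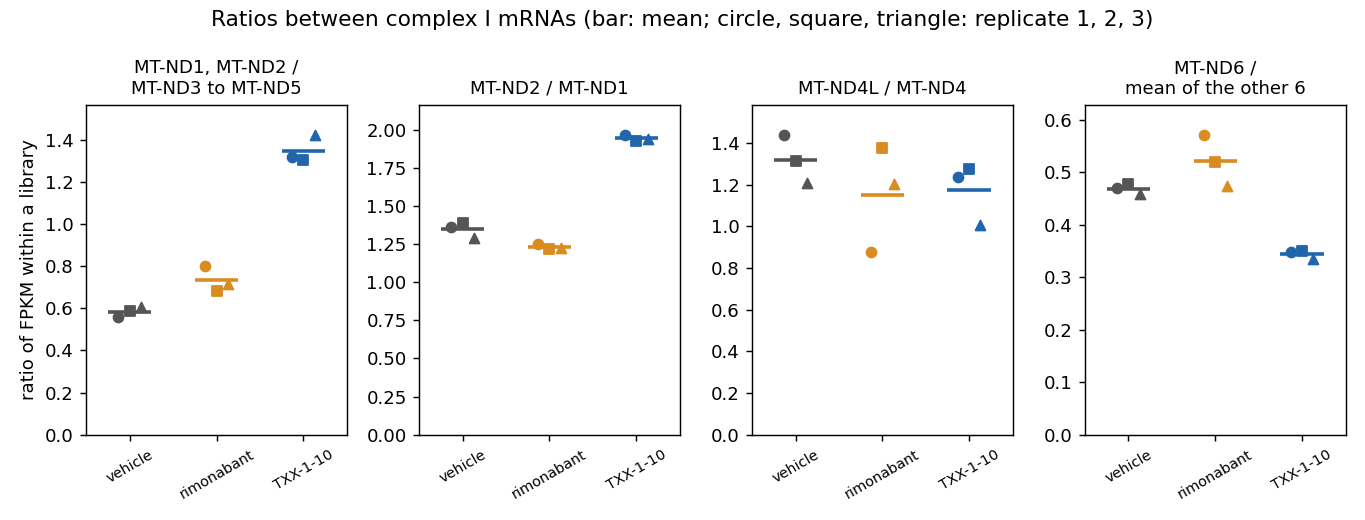
Ratios of FPKM within each library, from 0, for 4 pairs or sets of the members, with a bar at the mean of 3 libraries. The ratio of the genes ahead of the oxidase genes to those behind them goes from 0.584 with vehicle to 0.732 with rimonabant and 1.35 with TXX-1-10, while MT-ND4L over MT-ND4 overlaps between treatments.

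The strand ratio sets MT-ND6 against the mean of the 6 heavy-strand members in each library. Reads from either strand over MT-ND6 cannot be told apart, and its mRNA is known to carry little or no poly(A) tail. The ratio therefore compares the values of genes and cannot compare the strands. The ratio was 0.470, 0.477 and 0.459 with vehicle, 0.571, 0.519 and 0.474 with rimonabant, and 0.348, 0.351 and 0.335 with TXX-1-10. The TXX-1-10 libraries were below all others, and the rimonabant libraries spread upward from the vehicle range. The difference in log2 ratio was -0.44 for TXX-1-10 against vehicle (exact permutation p = 0.1, two-sided, the smallest that 3 against 3 libraries can give), 0.15 for rimonabant against vehicle (exact permutation p = 0.2) and -0.59 for TXX-1-10 against rimonabant (exact permutation p = 0.1).

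The TXX-1-10 value depended on the heavy-strand partner. With the 4 members from MT-ND3 to MT-ND5 as partner, a choice made after seeing the data, it was -0.07 (exact permutation p = 0.1), and with MT-CYB, also chosen afterwards, it was 0.07 (exact permutation p = 0.3). The rimonabant value against vehicle with the 4 members as partner was 0.23 (exact permutation p = 0.1). With the members of 500 to 1500 bases (MT-ND1, MT-ND2 and MT-ND4) as partner the TXX-1-10 value was -0.82 (exact permutation p = 0.1). In the main fit MT-ND6 had a log2 fold change (-1.57) between those of its neighbours MT-ND5 (-1.21) and MT-CYB (-1.64), which lie on the other strand.

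The nuclear genome carries near copies of mitochondrial genes, and their reads can be assigned to either place. A copy of MT-ND2, MTND2P28, lies at chr1:629640-630683 and was 98.4% identical to MT-ND2, with 17 mismatches and a longest identical run of 266 bases. Of the windows of 100 bases in MT-ND2, 26.1% occur unchanged in that copy, and 11.0% of those in MT-ND1 occur in MTND1P23. For the other 5 members no such window was found in another transcript. A stretch of 60 bases is shown for MT-ND2 (chrMT:4899-4958) and MTND2P28 (chr1:630069-630128). It was picked for having the most mismatches, 4, in capitals, among ungapped stretches of that length.
MT-ND2: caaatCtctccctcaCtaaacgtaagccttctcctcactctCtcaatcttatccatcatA
MTND2P28: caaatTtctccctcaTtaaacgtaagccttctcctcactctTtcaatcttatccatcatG

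MTND2P28 had FPKM of 325, 313 and 309 with vehicle, 247, 275 and 267 with rimonabant, and 227, 216 and 213 with TXX-1-10. Each treated group lay wholly below the vehicle libraries. Its log2 fold change under TXX-1-10 was -0.53 (SE 0.05, edgeR adjusted p = 7.72e-06), where MT-ND2 had -0.08, and under rimonabant -0.26 (SE 0.05, edgeR adjusted p = 0.00259). Its level was 8.82% ± 0.28 of that of MT-ND2 with vehicle, 7.09% ± 1.0 with rimonabant and 6.49% ± 0.60 with TXX-1-10, and its part in the MT-ND2 value was not tested. Of 27 MTND genes and pseudogenes listed in at least 1 library, only MTND2P28 had more than 100 counts in any library, and the others had at most 45.

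Across the 9 libraries, MT-ND3, MT-ND4L, MT-ND4, MT-ND5 and MT-ND6 rose and fell together, with pairwise Pearson r of log2(FPKM + 1) from 0.939 to 0.992. MT-ND1 followed them (0.845 to 0.965), and MT-ND2 had r of 0.345 to 0.631 with these 5 and 0.708 with MT-ND1. Among all genes of the 9 lists, those most like the members' mean were nuclear, namely MAD2L1 (a spindle checkpoint protein, r = 0.999), CDK1 (the mitotic kinase, 0.999), MYBL2 (a transcription factor, 0.998), TFDP1 (a partner of E2F factors, 0.998) and TUBB (a beta-tubulin, 0.998). MAD2L1 had a mean FPKM of 20.1 with vehicle, 18.2 with rimonabant and 6.15 with TXX-1-10. These correlations rest on 9 points that share the same lower TXX-1-10 group.

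Of 37 nuclear complex I subunits, 14 were among the genes listed in all 9 libraries. Under TXX-1-10, 9 of the 14 fell, 1 rose and 4 did not pass, where 43.8% of all genes tested fell, with a median log2 fold change of -0.28 and none at 2-fold. In a wider fit of 9369 genes listed for 8 libraries, all but rimonabant replicate 1, 25 of 34 fell and 1 rose, where 40.6% of all genes fell and 34.7% rose, with a median of -0.33. The 34 ran from -0.81 to 0.14. Under rimonabant 1 of 14 fell and 1 rose, where 25.2% of all genes fell and 23.7% rose, and in the wider fit 6 of 34 fell and 1 rose, where 22.8% fell and 23.7% rose. Without both libraries that favoured short genes, 8 of the 14 passed under rimonabant, where 68.6% of all genes did.

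**Figure D4:**
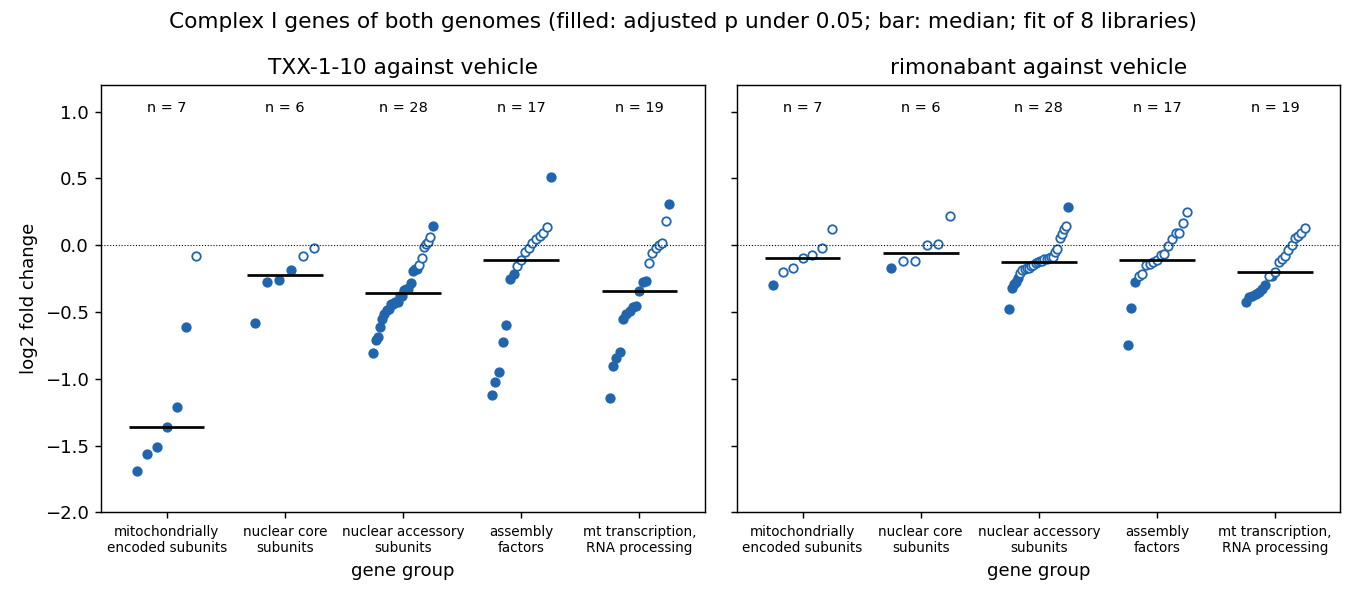
Log2 fold changes of complex I genes and of genes for mitochondrial transcription and RNA processing in the fit of 8 libraries, with a black bar at each median and filled points for an adjusted p under 0.05. Under TXX-1-10 the medians of the nuclear groups lie between -0.36 and -0.11 and that of the mitochondrially encoded subunits is -1.36. Scaling to the 13 mitochondrial mRNAs was run in the fit of all 9 libraries and is not drawn. It puts MT-ND1, MT-ND2, MT-ND3 and MT-ND5 above 0, and moves the median of all genes from -0.09 to 1.37.

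Among the core subunits, which carry the electrons inside complex I, NDUFS1 fell by 0.58 under TXX-1-10 (SE 0.04, edgeR adjusted p = 4.98e-07) and by 0.18 under rimonabant (edgeR adjusted p = 0.00539) on the log2 scale. NDUFV1, which binds NADH, fell by 0.27 (edgeR adjusted p = 0.0142), a call lost without TXX-1-10 replicate 1 or 2. Among the accessory subunits, NDUFS5 fell by 0.62 (edgeR adjusted p = 0.000278), NDUFAB1, the mitochondrial acyl carrier protein, by 0.49 (edgeR adjusted p = 0.00392) and NDUFS6 by 0.48 (edgeR adjusted p = 0.00740). NDUFA10 was the subunit that rose under TXX-1-10 (0.14, edgeR adjusted p = 0.0390), which did not pass with any vehicle library or TXX-1-10 replicate 2 or 3 left out. It also rose under rimonabant (0.19, edgeR adjusted p = 0.0160), which did not pass without vehicle replicate 2.

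Of 19 assembly factors, 3 were tested in all 9 libraries, and COA1 fell under TXX-1-10 (-0.72, edgeR adjusted p = 1.05e-06) and under rimonabant (-0.30, edgeR adjusted p = 0.00157). In the wider fit 7 of 17 fell and 1 rose under TXX-1-10, where 40.6% of all genes fell and 34.7% rose, a share of falling genes near that of all genes. Of 21 genes for mitochondrial transcription and RNA processing, 10 were tested, of which 8 fell under TXX-1-10 and 2 did not pass, where 43.8% of all genes fell, and 5 fell under rimonabant, where 25.2% did. In the wider fit 12 of 19 fell and 1 rose under TXX-1-10, where 40.6% and 34.7% of all genes did. The medians of the 10 were -0.48 and -0.28, beside -0.09 and -0.02 for all genes.

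Among the 10 genes of that list in all 9 libraries, the largest falls under TXX-1-10 were those of PNPT1, a polynucleotide phosphorylase that degrades mitochondrial RNA (-0.90, SE 0.04, edgeR adjusted p = 3.51e-08), SLIRP, which with LRPPRC binds and stabilises mitochondrial mRNAs (-0.85, SE 0.12, edgeR adjusted p = 7.37e-05), and ELAC2, which cuts the precursor behind each tRNA (-0.80, SE 0.06, edgeR adjusted p = 5.39e-07). Under rimonabant the log2 fold changes were -0.38 for PNPT1 (edgeR adjusted p = 7.89e-05) and -0.32 for ELAC2 (edgeR adjusted p = 0.00109). SLIRP had -0.27 (edgeR adjusted p = 0.0759) and passed without rimonabant replicate 1 or TXX-1-10 replicate 3.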

How the data were processed

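Data came from RNA-seq of MDA-MB-231 cells, with 3 libraries each for vehicle, rimonabant and TXX-1-10. Per the labels and the study's methods, oligo(dT)-selected RNA was made into NEBNext Ultra libraries, and the submitters' processing notes name HISAT2 2.0.5 and featureCounts 1.5.0-p3. Strand and multiple-overlap settings are not given in the sources used here. The authors deposited whole-number counts per gene without normalization. The authors also deposited FPKM values, from which the library total was recovered with count and gene length, and this total was the library size. All lists as used here end partway at different points of a shared order from high to low counts, so genes with few reads were not analysed here.

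Groups followed the treatment labels. Counts were fitted with edgeR 4.0.16 (glmQLFit, glmQLFTest) in R 4.3.3, all 9 libraries in 1 fit, Benjamini-Hochberg adjustment over the 4236 genes. The study used Cufflinks, which needs reads. A member passed at an adjusted p under 0.05 and was called changed at 2-fold as well. Standard errors were derived from the F statistic and are approximate. Strand ratios were tested by exact permutation over libraries. On simulated counts for the TXX-1-10 comparison (4236 genes, 200 changed 3-fold), 200 were recovered with 0 false calls at an adjusted p under 0.05 and at least 2-fold. The simulation gave all genes the same spread and held no library that favoured short genes. It does not cover calls made on the adjusted p alone. Alternatives used DESeq2 1.42.0, limma 3.58.1 on log2(FPKM + 1), other scalings, filters and left-out libraries. Coordinates and transcripts came from GENCODE 29 (GRCh38). Scripts ran in Python 3.11.15 with pandas 2.3.3, numpy 2.4.6, scipy 1.17.1, statsmodels 0.14.6 and matplotlib 3.10.9.

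Members and gene lists were chosen with earlier results of these data known. Named were all members, from each list up to 3 risers and 3 fallers with the largest change under TXX-1-10 among genes of the 9 lists, genes passing in opposite directions under the compounds, the 5 genes most like the members' mean, and MTND pseudogenes, of which all but MTND2P28 are given by their highest count. A gene that this rule names is not reported here. The rRNAs were added after their values were seen. Same-numbered libraries did not deviate together (correlations -0.08 to 0.04 for the comparisons with vehicle).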

Additional observations from a re-analysis of the deposited data

How the results depend on the processing

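In the comparison of TXX-1-10 with vehicle, the 6 members that fell did so under 24 alternatives. Under scaling to the 13 mitochondrial mRNAs 3 members passed, each of them as higher, and no member passed as lower. MT-ND4, MT-ND4L and MT-ND6 stayed below vehicle under that scaling but no longer passed. That scaling turned the difference from vehicle to 0.85 for MT-ND1, 1.38 for MT-ND2, 0.10 for MT-ND3 and 0.25 for MT-ND5, and the difference from rimonabant to 0.56, 1.22, 0.19 and 0.27. MT-ND2 against vehicle turned to 0.0160 with TMM, 0.0176 with DESeq2 size factors and DESeq2, 0.00905 with median scaling, 0.0403 with the length correction and 0.0401 with that and the replicate block. Under rimonabant MT-ND2 was -0.0177 and MT-ND6 -0.0696 in the fit of 8 lists, without rimonabant replicate 1 and without both libraries that favour short genes. With each library left out, MT-ND2 was -0.0177 to 0.109 and MT-ND6 -0.0696 to 0.112 (-0.0223 without vehicle replicate 3).

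Members passing under rimonabant were 2 with the 13-mRNA scaling, DESeq2, fits of 2 groups, and the length correction with or without the replicate block, 0 with limma at either pseudocount (1 or 0.1) and at 2-fold, and 4 without both short-favouring libraries. With each library left out, 6 to 6, 0 to 3 and 6 to 7 members passed for TXX-1-10 against vehicle, rimonabant against vehicle and TXX-1-10 against rimonabant. Nuclear subunits passing were 26, 7 and 14 in the fit of 8 lists in the same order of comparisons, 0 at 2-fold in each, and under rimonabant 4 with DESeq2 and 8 without both libraries, and with each library left out 7 to 11, 1 to 3 (1 without vehicle replicate 2) and 6 to 11.

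The log2 strand ratio of MT-ND6 was -0.35 (TXX-1-10 against vehicle) with MT-ND5 as partner, -0.82, 0.0122 and -0.83 with members of 500 to 1500 bases, 0.0736, 0.0110 and 0.0625 with MT-CYB, and -0.0700, 0.23 and -0.30 with the 4 members from MT-ND3 to MT-ND5. With each library left out the ratio was -0.46 to -0.42, 0.08 to 0.22 and -0.66 to -0.53. Over all genes, TXX-1-10 calls against vehicle were 1294 higher and 1857 lower with the library totals, and 1568 and 1570 with TMM. The causes were not tested.

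The replicate numbers did not pair the libraries (same-number correlations of -0.79, 0.83 and -0.61 between TXX-1-10 and rimonabant). With the number as a replicate block, 6, 1 and 6 members passed, the counts of the main tests, the nuclear subunits passing were 9, 2 and 9, and the strand ratios were -0.44, 0.15 and -0.59 (exact permutation p = 0.25 each). Genes with few reads were left out because the lists used here end partway, and the members were listed in every library.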
